A study of Mus musculus with 2688 samples.

Results

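Hippocampal microglia were compared between mice of 3 weeks and mice of 16 weeks. The cells were 342 wells in 7 hippocampus samples, out of 2402 cells in 51 region samples of the whole series. A well entered where its label gave wild-type hippocampus at either age, where at least 500 genes had a read and where at most 20% of its reads came from mitochondrial genes. Of 380 sorted hippocampal wells, 38 fell short of 500 genes and 0 exceeded the mitochondrial limit. The 3 samples of 3-week mice held 60, 62 and 52 cells, and the 4 samples of 16-week mice held 41, 44, 42 and 41 cells.

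All mice were of CD1, an outbred stock, and the labels give both groups as wild type and name no treatment. Cells had been isolated after perfusion on a Percoll gradient, stained for CD11b, CD45, Ly6C, Ly6G and CD206, and sorted singly into 384-well plates for SmartSeq2, which copies full-length transcripts and carries no molecular identifiers. The design text speaks of replicate mice with several regions taken from each, so the region sample was the unit of every test. Summed over its cells, a hippocampus sample held 9655897 to 12292736 counts.

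Microglia are the resident macrophages of the brain. In the hippocampus they are known for clearing debris and for removing synapses while circuits mature, through complement and through receptors for chemokines and nucleotides. Between weaning and adulthood they keep a homeostatic programme marked by genes such as P2ry12 and Tmem119 while proliferation is low.

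Several features of the libraries bear on every result. All 3-week hippocampal cells were on a plate shared with 3-week cortex, and all 16-week hippocampal cells were on a plate shared with 16-week corpus callosum, so that age and plate cannot be told apart within the hippocampus. In the deposited table the wells of plate columns 1 and 2 also held the counts of the wells whose names begin the same way (A1 held those of A10 to A19). These were subtracted, and 26 kept cells of the 16-week replicate 1 lay in those columns. The 4 blank wells of the 3-week plate held 2237 to 26443 reads and 1 of them reached 500 genes, while the 4 blanks of the 16-week plate held 10 to 71 reads. Across 11625 tested genes with a known transcript, the age change fell with the GC content of the transcript (Spearman's rho = -0.32, across genes, which are not independent replicates).

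The cells carried the microglial programme at both ages. Every cell, thinned to 40000 reads (153 cells at 3 weeks and 167 at 16 weeks), had reads of P2ry12 and Tmem119. Summed over its members, a list of 20 homeostatic genes held 158161 to 166328 CPM (counts scaled to a library of fixed size) at 3 weeks and 139520.4 to 162364 CPM at 16 weeks. Of the marker lists of other cells, some were near 0 and others held reads at both ages. Of 12 T and NK cell markers 8 were at 0 in all 7 samples, with a summed level of 0.0907 to 12.9 CPM at 3 weeks and 0 to 0.168 CPM at 16 weeks. Of 12 neutrophil markers S100a8, Ly6g, Mmp9 and Retnlg were at 0, and the summed level of 672 to 738 CPM at 3 weeks and 794 to 961 CPM at 16 weeks was almost all Csf3r. Of 14 border macrophage markers Ms4a7 and Fcna were at 0. Their summed level was 286 to 354 CPM at 3 weeks and 130.4 to 245 CPM at 16 weeks, and most of it was Stab1. The 12 monocyte markers summed to 46 to 95.8 CPM at 3 weeks and 46.8 to 166 CPM at 16 weeks. Neuronal markers reached at most 28 CPM in total at either age, and the 10 markers of hippocampal neurons at most 67.8 CPM. The 12 B cell markers summed to 669.7 to 1141 CPM at 3 weeks and 912 to 1515 CPM at 16 weeks, most of it Ighm, with Cd79a, Igkc and Fcmr at 0. The 12 endothelial markers summed to 547 to 659 CPM and 372 to 830.5 CPM, most of it Bsg, with Ly6c1 and Itm2a at 0. The 12 astrocyte markers summed to 105 to 169.8 CPM and 140.3 to 313 CPM, nearly all Slc1a3, with Aqp4 and Gja1 at 0. The 12 oligodendrocyte markers summed to 112 to 226 CPM and 104 to 168 CPM, with Mog at 0. No gene of these 4 lists was called between ages, and their part in the results was not tested.

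With age, 7 genes rose and 4 fell in hippocampal microglia. The genes that rose were the mitochondrial ribosomal RNAs mt-Rnr1 and mt-Rnr2, the mitochondrial genes mt-Nd1 and mt-Cytb, the granule proteoglycan Srgn, the lactonase Pon3 and the nuclear noncoding RNA Malat1. Those that fell were Lag3, Rhob, Tcirg1 and Cst3. The changes ran from 1.52-fold for Cst3 to 11.7-fold for Srgn. Of 11965 genes tested with edgeR's quasi-likelihood test and Benjamini-Hochberg adjustment, these 11 (0.0919%) had an adjusted p under 0.05, with 0.0585% of genes called higher and 0.0334% called lower. At an unadjusted p under 0.05, 493 genes lay higher and 447 lower, these 11 included. The median log2 change of all genes tested was 0.04. The calls rested on all 7 samples: leaving out any single sample left between 0 and 5 calls, and dropping the wells of plate columns 1 and 2 left 2.

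A correction for the GC trend, chosen after seeing the data, ended all 11 calls. It removed from each sample a smooth trend of log2 CPM on GC content, after which the lowest adjusted p of any gene was 0.212 by edgeR, with 643 genes at an unadjusted p under 0.05. All 11 genes kept their direction, and 7 of the 11 log2 changes shrank by more than 1.5 times. The GC content of each called gene and its corrected change are therefore given beside its values. A fit with terms for age, region and plate over 35 samples assumes 1 age change for all regions. Given which groups shared plates, its age term equals the summed changes of cortex, corpus callosum and spinal cord less those of hippocampus and cerebellum. The hippocampal change enters with a minus sign, so this term cannot say how that change would stand with plate accounted for. It called none of the 11 and had the opposite sign for mt-Nd1, mt-Cytb, Pon3 and Tcirg1, from which no conclusion is drawn. A pooled fit without plate, with terms for age and region only, was chosen after seeing the data. It gave 0.28, 0.32, 0.15 and -0.57 for mt-Nd1, mt-Cytb, Pon3 and Tcirg1. For mt-Rnr2, mt-Rnr1, Malat1, Srgn, Rhob, Lag3 and Cst3 it gave 0.57, 0.91, 0.69, 2.37, -0.57, -1.31 and -0.36.

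The lines below give the first 90 coding bases of 2 genes that fell and of 3 that rose, from GENCODE vM21 transcripts on GRCm38, 5′ to 3′, with G and C in capitals, shown because the age change went with base composition.
Rhob: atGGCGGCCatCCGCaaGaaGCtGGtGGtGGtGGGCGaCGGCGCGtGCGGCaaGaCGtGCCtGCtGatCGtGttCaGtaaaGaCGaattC
Lag3: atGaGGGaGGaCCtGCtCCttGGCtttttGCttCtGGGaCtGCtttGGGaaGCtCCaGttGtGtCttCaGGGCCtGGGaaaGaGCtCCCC
mt-Nd1: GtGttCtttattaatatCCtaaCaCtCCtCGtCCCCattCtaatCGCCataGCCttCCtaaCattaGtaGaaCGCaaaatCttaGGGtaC
Pon3: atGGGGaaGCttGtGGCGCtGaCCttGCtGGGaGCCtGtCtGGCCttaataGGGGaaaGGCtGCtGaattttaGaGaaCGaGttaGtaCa
Srgn: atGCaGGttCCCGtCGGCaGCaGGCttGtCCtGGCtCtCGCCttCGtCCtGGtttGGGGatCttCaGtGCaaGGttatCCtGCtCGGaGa
The Rhob run lies on chr12:8499543-8499632 (minus strand, 1 exon) and is 61.1% G or C. The Lag3 run spans chr6:124910880-124911351 (minus strand, 2 coding exons) and is 56.7% G or C. The mt-Nd1 run lies on chrM:2751-2840 (plus strand) and is 40% G or C. The Pon3 run spans chr6:5254571-5256226 (minus strand, 2 coding exons) with 51.1%, and the Srgn run spans chr10:62497907-62507714 (minus strand, 2 coding exons) with 58.9%. Over the whole coding sequence the share was 62.2% for Rhob, 59.9% for Lag3, 37.6% for mt-Nd1, 46.4% for Pon3 and 49.8% for Srgn, higher in both genes that fell than in the 3 that rose. The starts alone did not part them, since the Srgn run is richer in G and C than the Lag3 run and than the whole Srgn transcript (42.9%, untranslated parts included).

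Srgn encodes serglycin, the core protein of secretory granule proteoglycans in blood cells, and is located on chromosome 10 (62493833 to 62527451, GRCm38, minus strand). Its level was 21.5, 13.9 and 11.9 CPM in the 3-week samples and 225, 96.4, 258 and 162 CPM in the 16-week samples. The groups did not overlap, and the lowest 16-week sample stood above the highest 3-week sample. The log2 change was 3.55 (SE 0.45, edgeR adjusted p = 0.0344), and it was 3.27 (SE 0.45, adjusted p = 0.212) after the GC correction. Leaving out any 1 of the 7 samples kept the log2 change between 3.37 and 3.85, with adjusted p between 0.0576 and 0.317.

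The rise of Srgn went with more cells carrying its reads. At 40000 reads per cell, 14.8, 11.1 and 13.3% of cells had at least 1 Srgn read at 3 weeks, against 47.5, 29.5, 50 and 56.1% at 16 weeks. These shares did not overlap either, with means of 13.1% ± 1.86 (SD, n = 3) and 45.8% ± 11.4 (SD, n = 4), and an exact two-sided permutation test gave p = 0.0571, the smallest that 3 against 4 samples allow (adjusted p = 0.629 over the 11 called genes). In cells with reads the median level was 73.7, 118 and 91.5 CPM at 3 weeks and 256, 199, 339 and 259.7 CPM at 16 weeks, so both the share of cells and the level in them were higher. No blank well of either plate had a Srgn read. None of the 11 shares could reach 0.05 in this design.

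At 16 weeks 76 cells had Srgn reads and 91 had none. All of both sets had P2ry12 and Tmem119 reads. Sall1, a transcription factor of microglia, had reads in 76.3% of cells with Srgn and 90.1% of cells without, and Fcrls, a microglial receptor gene, in 82.9% and 90.1%. Mrc1, a border macrophage gene, had reads in 0 of the 76 (which allows a share of up to 3.95%) and in 2 of the 91. Reads of Cd74, the invariant chain of MHC class II, were found in 25% of cells with Srgn and 7.69% of cells without. For H2-Aa, an MHC class II chain, the shares were 14.5% and 3.3%. For Lag3, Pon3 and Apoe they were 63.2 and 62.6%, 55.3 and 53.8%, and 59.2 and 61.5%. These shares pool the cells of 4 samples, the genes were chosen with the values in view, and no test was made. Replicate 4 alone held a high summed level of MHC class II genes, and the shares were not split by sample. At 3 weeks 20 cells had Srgn reads and 133 had none. There the shares were 20 and 12.8% for Cd74 and 0 (up to 15% allowed) and 0.752% for H2-Aa. For Sall1 they were 90 and 88.7%, and for Fcrls 90 and 99.2%.

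**Figure D1:**
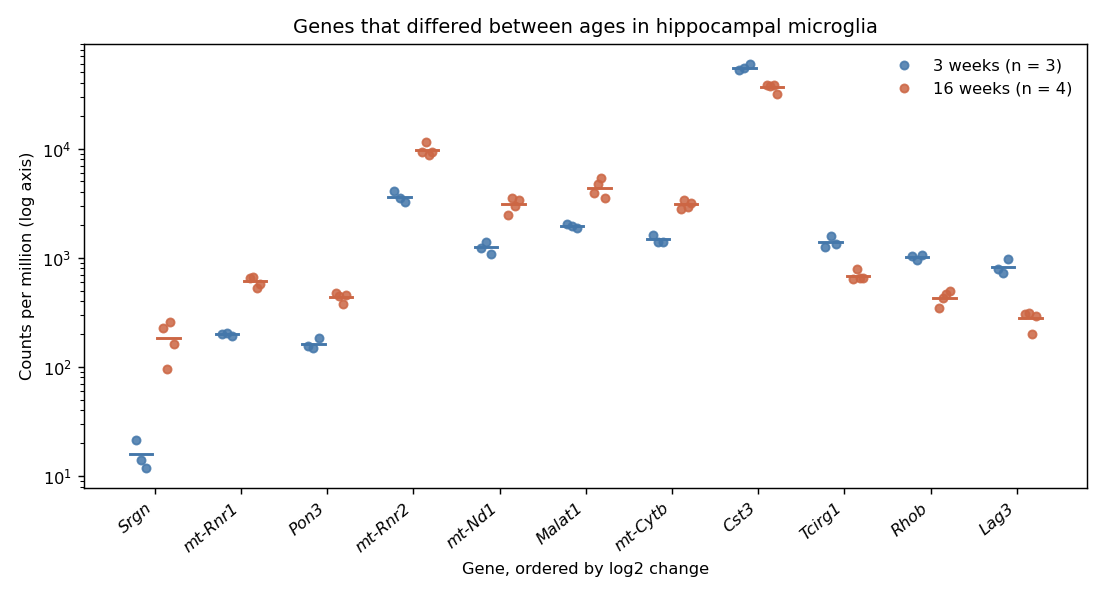
Level in CPM (log axis) of the 11 genes with an adjusted p under 0.05, 1 point per sample, with bars at the group means. The 3-week and 16-week samples of each gene do not overlap, and Srgn shows the largest change of the 11, from 11.9 to 21.5 CPM at 3 weeks to 96.4 to 258 CPM at 16 weeks.

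Of the called genes, 4 are encoded in the mitochondrial genome, all of them higher at 16 weeks. They form part of a list of 37 mitochondrially encoded genes, of which 19 were tested, 4 were called higher and 0 were called lower. The median log2 change of those tested was 0.77, against 0.04 over all genes tested, and 0.41 after the GC correction, against 0.11. The list includes transfer RNAs with few reads, and 13 of its genes, mt-Co2, mt-Co3 and mt-Atp6 among them, were listed at 0 in every hippocampus sample. Parts of the mitochondrial genome have near-identical copies on nuclear chromosomes, so levels of single mitochondrial genes are uncertain where the counting could not place reads.

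The larger mitochondrial ribosomal RNA, mt-Rnr2 (chromosome M, 1094 to 2675), was at 4085, 3503 and 3274 CPM at 3 weeks and at 9278, 11481, 8693 and 9404 CPM at 16 weeks. No sample of the older group came near the younger ones. Its log2 change was 1.42 (SE 0.12, edgeR adjusted p = 0.0102), and 0.88 (SE 0.11, adjusted p = 0.212) after GC correction, its transcript holding 35.4% G and C. The smaller one, mt-Rnr1, was at 201, 203 and 192 CPM at 3 weeks and at 656, 669, 531 and 577 CPM at 16 weeks (log2 change 1.61, SE 0.17, edgeR adjusted p = 0.0227). The younger samples were tightly grouped and all lay below the older ones. Its corrected log2 change was 1.08 (SE 0.16), with 35.8% G and C in the transcript.

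The subunit of complex I encoded by mt-Nd1 was at 1239.8, 1401 and 1091 CPM at 3 weeks and 2487, 3554, 3009 and 3391 CPM at 16 weeks. Cytochrome b, encoded by mt-Cytb and part of complex III, was at 1606, 1396 and 1408 CPM and then at 2780.4, 3416, 2929 and 3198 CPM. In both genes the ages did not overlap. Their log2 changes were 1.32 (SE 0.15, adjusted p = 0.0307) and 1.07 (SE 0.12, adjusted p = 0.0227) by edgeR, and 0.85 and 0.64 after GC correction, their transcripts holding 37.6 and 39.1% G and C. In the pooled fit without plate they were 0.28 and 0.32. Among genes that missed the threshold, mt-Nd5 (mean 553 CPM at 3 weeks and 1309 CPM at 16 weeks), mt-Co1 (1704 and 3140.4 CPM) and mt-Nd2 (129 and 284 CPM) also had groups that did not overlap. Their log2 changes of 1.24, 0.88 and 1.14 came to 0.74, 0.48 and 0.61 after GC correction.

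Per cell, the mitochondrial share of reads had a median of 0.967, 0.875 and 0.767% in the 3-week samples and 1.55, 2.31, 1.66 and 2.01% in the 16-week samples. The groups did not overlap, and the exact two-sided permutation p was 0.0571, the smallest possible. Nuclear genes of oxidative phosphorylation did not follow: of 83, 77 were tested, 0 were called, and their median log2 change was -0.08 (0.1 after GC correction). The median number of genes detected per cell at 40000 reads was 2094, 2166 and 2247 in the 3-week samples and 2332, 2134, 1942 and 1982 in the 16-week samples, which overlapped (exact two-sided permutation p = 0.571).

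Malat1, an abundant RNA that stays in the nucleus (chromosome 19, 5795690 to 5802671), was at 2044, 1972 and 1885 CPM at 3 weeks and 3956, 4704, 5351 and 3539 CPM at 16 weeks. The lowest older sample was well above the highest younger one. The log2 change was 1.16 (SE 0.15, edgeR adjusted p = 0.0344), and 0.86 (SE 0.16) after GC correction of a transcript with 42.5% G and C. Of 11 nuclear-retained noncoding RNAs, 9 were tested and only Malat1 was called, and the median log2 change of 0.45 came to 0.07 after the correction. Of 20 splicing and RNA-binding genes none was called. Ddx5, an RNA helicase, went from a range of 1129 to 1629.8 CPM to 1992 to 3169 CPM (adjusted p = 0.269), and the list's median log2 change was 0.33, or 0.10 corrected.

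Pon3, a lactonase of the paraoxonase family found on membranes and in lipoprotein (chromosome 6, 5220852 to 5256233, minus strand), was at 157, 148 and 185 CPM at 3 weeks and 474, 449, 381 and 456 CPM at 16 weeks. Both groups were narrow and did not overlap. The log2 change was 1.43 (SE 0.19, edgeR adjusted p = 0.0362), and 1.24 (SE 0.18, adjusted p = 0.212) after GC correction of a transcript with 45% G and C. In the pooled fit without plate the change was 0.15. About as many cells had Pon3 reads at both ages, 50.5% ± 3.71 (SD, n = 3) at 3 weeks and 54.5% ± 7.14 (SD, n = 4) at 16 weeks. The level in cells with reads had sample medians of 206 to 249 CPM at 3 weeks and 307 to 489 CPM at 16 weeks.

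Lag3 encodes an inhibitory immune receptor that binds MHC class II (chromosome 6, 124904361 to 124911705, minus strand). It was at 784, 731 and 974 CPM in the 3-week samples and at 307, 313, 201 and 291 CPM in the 16-week samples. Every older sample was lower than every younger one. The log2 change was -1.58 (SE 0.20, edgeR adjusted p = 0.0344), and -0.87 (SE 0.18, adjusted p = 0.485) after GC correction, the transcript holding 59.9% G and C. Cells with Lag3 reads made up 84.1% ± 10.3 (SD, n = 3) and 62.6% ± 9.67 (SD, n = 4), and these shares overlapped between ages (exact two-sided permutation p = 0.114). Among 20 immune checkpoint and inhibitory receptor genes, 18 were tested and Lag3 was the 1 called lower. The older group lay higher without overlap in 3 and lower in 3, against 4.57 and 6.26% of all genes tested. None was called higher, and the median log2 change was 0.16 (0.03 after GC correction).

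Rhob, a small GTPase that acts on actin and endosomes, was at 1027, 944 and 1058 CPM at 3 weeks and 349, 424, 462 and 492 CPM at 16 weeks. The lowest 3-week value was well above the highest 16-week value. Its log2 change was -1.23 (SE 0.16, edgeR adjusted p = 0.0344), and -0.78 (SE 0.17, adjusted p = 0.485) after GC correction of a transcript with 56.1% G and C. Of 20 genes of the actin cytoskeleton, all were tested and none was called, with a median log2 change of -0.30 (0.09 corrected). Actb, cytoplasmic actin, went from 9312 to 11227 CPM at 3 weeks to 6083 to 7679 CPM at 16 weeks (adjusted p = 0.177).

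Tcirg1 encodes a membrane subunit of the proton pump that acidifies lysosomes (chromosome 19, 3896050 to 3907112). It was at 1246, 1584 and 1330.4 CPM at 3 weeks and 639.6, 783, 651 and 655 CPM at 16 weeks, without overlap. The log2 change was -1.02 (SE 0.14, edgeR adjusted p = 0.0455), and -0.41 (SE 0.14, adjusted p = 0.76) after GC correction of a transcript with 58.6% G and C. In the pooled fit without plate the change was -0.57. Cst3, cystatin C, a secreted inhibitor of cysteine proteases and among the most abundant microglial messages, was at 52047, 54201 and 59345 CPM and then at 38323, 37059.6, 38281 and 31470.1 CPM. The drop was even across samples and without overlap. Its log2 change of -0.61 (SE 0.08, edgeR adjusted p = 0.0389) came to -0.09 (SE 0.07, adjusted p = 0.999) after GC correction, with 57.2% G and C in the transcript. In the pooled fit without plate the change was -0.36.

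**Figure D2:**
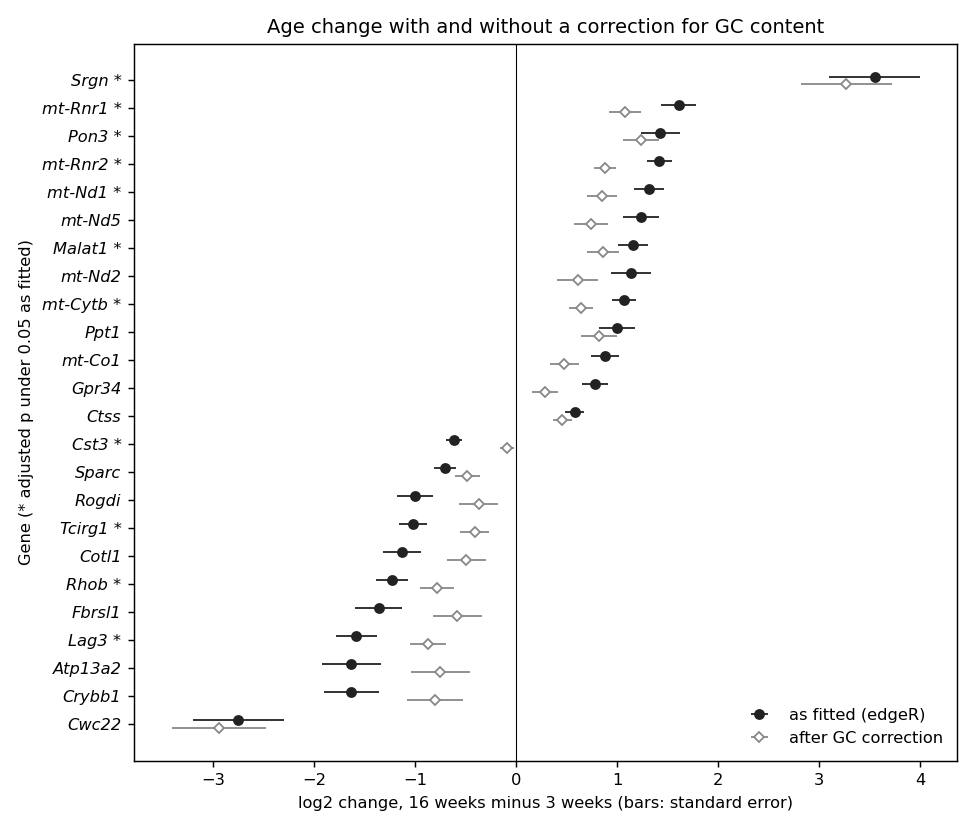
Log2 change from 3 to 16 weeks, with its standard error, of the 24 genes named by rule, as fitted by edgeR (filled circles) and after a correction for transcript GC content (open diamonds). Stars mark the 11 genes with an adjusted p under 0.05 as fitted, and Srgn came from 3.55 to 3.27 and Pon3 from 1.43 to 1.24, while Cst3 came from -0.61 to -0.09.

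Another 13 genes had the lowest p among those that missed the threshold and whose ages did not overlap. Groups that did not overlap were not rare, at 4.57% of genes higher and 6.26% lower at 16 weeks. Of the 13, 7 besides the mitochondrial genes lay lower at 16 weeks and 3 lay higher, with adjusted p between 0.0618 and 0.154. Cwc22, a splicing factor, lay at 221, 113 and 116 CPM at 3 weeks and at 19.7, 15.5, 37.6 and 16.5 CPM at 16 weeks, a log2 change of -2.75 (SE 0.45, edgeR adjusted p = 0.115). The GC correction left it at -2.94, and the share of cells with reads went from 59.6% ± 14.1 (SD, n = 3) to 10.7% ± 5.6 (SD, n = 4) without overlap (exact two-sided permutation p = 0.0571). In the fit of 35 samples Cwc22 lay lower without overlap in the other 4 regions too, with log2 changes of -2.6 to -4.77. Near-identical copies of Cwc22 vary in number between mouse stocks, so its counts are uncertain.

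Sparc, a secreted matrix protein of ramified microglia, lay at 9911 to 11084 CPM at 3 weeks and 5605 to 7544 CPM at 16 weeks (log2 change -0.70, SE 0.11, edgeR adjusted p = 0.0906, and -0.48 after GC correction). Crybb1, a lens crystallin gene known as a marker of maturing microglia, lay at 249 to 401 CPM and at 72.2 to 123 CPM (-1.63, SE 0.27, adjusted p = 0.115 by edgeR, and -0.80 after GC correction). The share of cells with Crybb1 reads was 82.2 to 85.2% at 3 weeks and 50 to 66.7% at 16 weeks. On the higher side were Ctss, the lysosomal protease cathepsin S, with 6602 to 8475 CPM and 10831 to 11320.2 CPM, and the receptor gene Gpr34, with 3386 to 3519.7 CPM and 4777 to 6966 CPM. The lysosomal thioesterase gene Ppt1 lay at 379 to 519 CPM and 798 to 1087 CPM. The log2 changes of Ctss, Gpr34 and Ppt1, as fitted 0.58, 0.78 and 1.00, came to 0.46, 0.29 and 0.82 after GC correction. In the pooled fit without plate Ctss, Gpr34 and Ppt1 came to 0.25, 0.35 and 0.49. Cotl1, Fbrsl1, Rogdi and Atp13a2, the last a lysosomal transporter, lay lower at 16 weeks, with log2 changes of -1.13, -1.36, -1 and -1.63. After GC correction these were -0.49, -0.58, -0.37 and -0.75. In the pooled fit without plate they were -0.37, -0.6, -0.61 and -0.87. Sparc and Crybb1 were at -0.65 and -1.16 in that fit. Direction and base composition went together in these genes: the 6 nuclear genes named on the higher side held 37.1 to 46% G and C, and the 10 on the lower side other than Cwc22 held 52.5 to 62.5%.

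**Figure D3:**
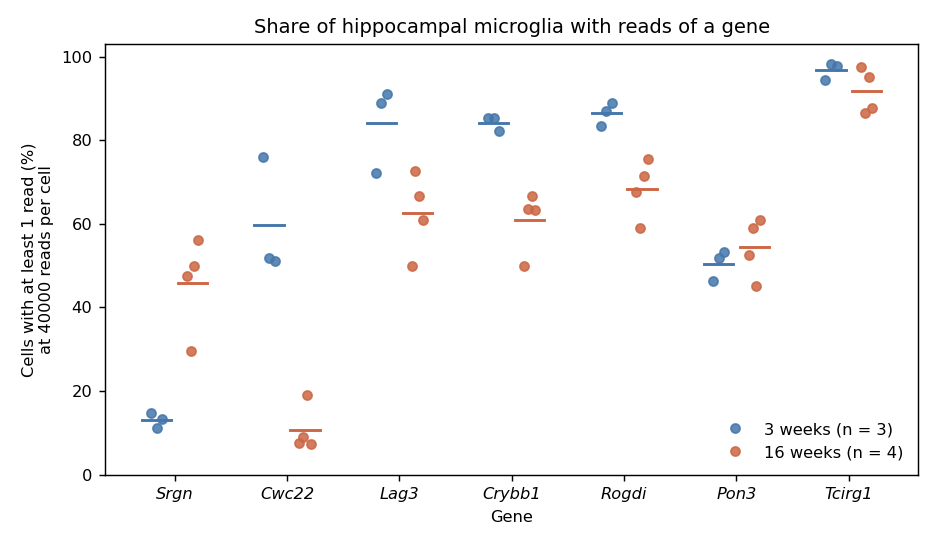
Percent of cells with at least 1 read of a gene, every cell thinned to 40000 reads, 1 point per sample with bars at the group means. Srgn lies at 11.1 to 14.8% at 3 weeks and 29.5 to 56.1% at 16 weeks and Cwc22 lies the other way round, while the shares of Pon3 overlap.

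Across the other lists the threshold was rarely passed. Of the 20 homeostatic genes, all tested, Cst3 alone was called, and the median log2 change was 0.13 (0.2 after GC correction). Without overlap, the older group lay higher in 8 and lower in 5, against 4.57 and 6.26% of all genes tested. Values lay higher for P2ry13 (3090.3 to 3474 CPM at 3 weeks, 4584 to 6096 CPM at 16 weeks), a nucleotide receptor, and Siglech (2021 to 2372 and 2782 to 3121 CPM). They lay lower for Selplg (8977 to 9595 and 6789 to 7808 CPM), the ligand of P-selectin. P2ry12, a receptor for nucleotides, lay at 9021 to 10219.6 CPM and 10669 to 13498 CPM, with a log2 change of 0.37 that came to -0.07 after GC correction. Tmem119 overlapped between ages (7284 to 8744 and 5229 to 7929.8 CPM).

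No gene of the engulfment, lysosome and receptor lists other than those described above passed the threshold. Of 20 complement and engulfment genes 17 were tested and 0 called, with a median log2 change of -0.04 (0.32 after GC correction). C1qa lay at 3996 to 4207 CPM and 3432 to 4141 CPM. Of 20 disease-associated and phagocytic genes 17 were tested and 0 called. Ctsd, a lysosomal protease in that list, lay at 10194 to 14866 CPM and 7179 to 10836 CPM. Of 20 lysosomal genes all were tested and 0 called. Without overlap, the older group lay above in 4 and below in 5, against 4.57 and 6.26% of all genes tested. Purine, chemokine and growth factor receptors had 17 of 20 tested and 0 called. Their most abundant members were Csf1r (16693 to 19750 CPM and 12635 to 16048 CPM) and Cx3cr1 (6785 to 7991 CPM and 8029 to 9846 CPM), the receptors for colony-stimulating factor and fractalkine.

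No gene of the lipid lists was called. Of 20 transport and efflux genes 14 were tested, with a median log2 change of -0.33 (-0.11 corrected). Apoe was the 1 gene whose ages did not overlap, where 6.26% of all genes tested lay lower without overlap. Apoe, the main lipid carrier of the brain, lay at 1762, 3709.9 and 2557 CPM at 3 weeks and 1535, 1018, 619 and 780.4 CPM at 16 weeks. The groups did not overlap, but the 3-week samples differed among themselves, and the log2 change was -1.44 (SE 0.33, edgeR adjusted p = 0.303). Cholesterol synthesis genes had 17 of 20 tested and 0 called. Glycolysis genes had 14 of 16 tested and 0 called, with a median of -0.52 (-0.25 corrected). Cytosolic ribosomal protein genes had 80 of 89 tested, 0 called and a median of -0.17, or 0.01 after GC correction.

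Some lists moved in single samples. MHC class II genes, which present antigen, summed to 392, 293 and 512 CPM at 3 weeks and to 536, 411, 373 and 2200.4 CPM at 16 weeks. Replicate 4 held the high value, the other older samples overlapped with the younger ones, and none of the 9 genes was called. The G2/M genes, which mark dividing cells, summed to 27.8, 44.7 and 76.8 CPM at 3 weeks and to 64.4, 22.5, 391 and 611 CPM at 16 weeks. Here replicates 3 and 4 were high, and 0 of 12 genes tested were called. Cells with at least 5 of 20 G2/M genes numbered 0 of 153 at 3 weeks, which allows a share of up to 1.96%, and 3 of 167 at 16 weeks, 1 in replicate 3 and 2 in replicate 4 (exact two-sided permutation p = 0.571). Intervals and limits of this kind cover counting error only.

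Chemokine and cytokine genes summed to 498, 692 and 574 CPM at 3 weeks and to 1123, 721, 1174 and 786 CPM at 16 weeks. Every older sample lay above every younger one. Of the 20 genes 15 were tested and 0 called, with a median log2 change of 0.98 (0.71 corrected). Ccl4, a chemokine of activated macrophages, was at 0, 4.35 and 1.25 CPM at 3 weeks and 33, 34.2, 472 and 0 CPM at 16 weeks. The high value was that of replicate 3, and both ages held a sample at 0. Type I interferon response genes summed to at most 300.1 CPM at 3 weeks and to 170.4 to 546 CPM at 16 weeks, with 0 of 11 called. Of 15 MHC class I genes 0 were called, and B2m lay at 1321 to 1540 CPM and 1383 to 2239.9 CPM.

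The age change was then set beside that of 4 other regions, each with 3 samples at 3 weeks and 4 at 16 weeks, in a fit of 35 samples. With genes in 5 equal groups by GC content, the median log2 change ran from 0.45 in the group of lowest GC to -0.41 in the highest in hippocampus, and from 0.43 to -0.37 in cortex, whose 3-week cells shared the plate. It ran from 0.17 to -0.16 in corpus callosum, from 0.06 to -0.04 in spinal cord and from -0.01 to 0.00 in cerebellum. Spearman's rho across genes was -0.32 in hippocampus and cortex, -0.15 in corpus callosum, -0.06 in spinal cord and 0.00 in cerebellum. The hippocampal medians and rho came from the fit of its 7 samples, those of the other regions from the fit of 35. The part of plate and base composition in the age changes was not tested beyond the fits given here.

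**Figure D4:**
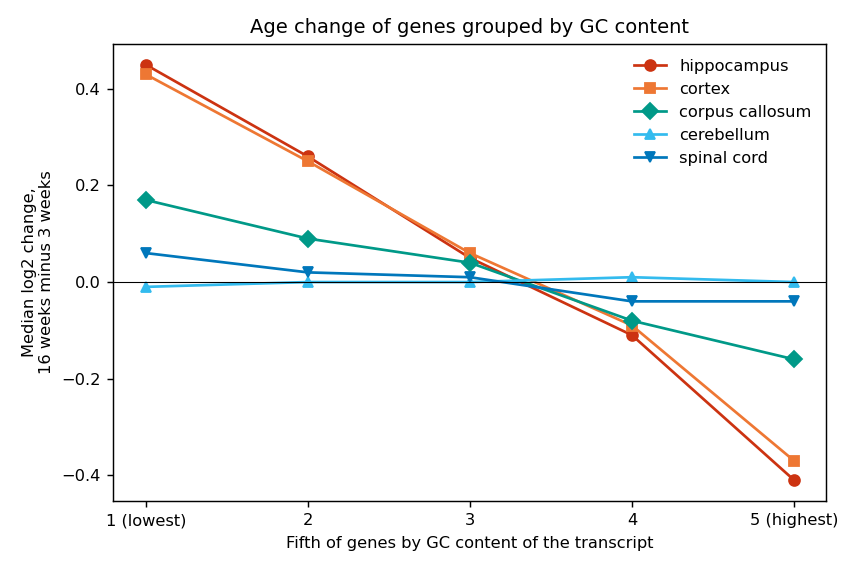
Median log2 change from 3 to 16 weeks of 11625 genes in 5 equal groups by transcript GC content, 1 line per region. Hippocampus and cortex slope from 0.45 and 0.43 in the group of lowest GC to -0.41 and -0.37 in the highest, and the line of cerebellum is flat.

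The 7 genes that rose and the 4 that fell were looked up in the other regions. In cortex the age groups did not overlap in the same direction for 6 of the 7 and 4 of the 4, where 4.72% of the 11965 genes were apart with the older group higher and 5.11% with it lower. In corpus callosum this held for 3 and 4 genes (2.28 and 5.74% of all), in cerebellum for 3 and 2 (3.33 and 3.99%), and in spinal cord for 2 and 0 (2.76 and 5.65%). Srgn lay higher at 16 weeks in every region, with log2 changes of 3.54 (SE 0.35) in hippocampus, 3.24 (SE 0.35) in cortex, 2.25 (SE 0.33) in corpus callosum, 1.51 (SE 0.32) in cerebellum and 1.55 (SE 0.32) in spinal cord. Its 16-week mean ran from 138 CPM in cerebellum to 203 CPM in spinal cord, while the 3-week mean went from 16 CPM in cortex and 16.1 CPM in hippocampus to 70.3 CPM in spinal cord. Lag3 lay lower in every region, by -1.58 in hippocampus and -0.97 to -1.41 elsewhere. Malat1 lay higher in every region, by 1.15 in hippocampus, 1.10 in cortex and 0.28 to 0.49 in the other regions.

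The change of Pon3 was then compared between regions. In hippocampus it went from a mean of 167 CPM to 455 CPM on the scale of this fit, while cortex had 200.4 and 225 CPM, corpus callosum 238 and 226 CPM, cerebellum 302 and 251 CPM, and spinal cord 308 and 245 CPM. Only in hippocampus did the ages not overlap, and its 3-week level was the lowest mean of the 5 regions. The difference between the hippocampal change and the mean change of the other 4 regions was 1.55 (SE 0.31, log2), and it missed the threshold as fitted (edgeR adjusted p = 0.0817). With the GC correction, chosen after seeing the data, it was 1.70 (adjusted p = 0.0343). Against cortex alone the difference was 1.28 (edgeR adjusted p = 0.544), and against corpus callosum alone 1.45 (edgeR adjusted p = 0.283). Neither passed with the GC correction (adjusted p = 0.485 and 0.114).

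The test against the mean change of the other 4 regions called 4 of 19580 genes (0.0204%), all mitochondrial and all with a larger rise in hippocampus. They were mt-Nd1 (difference 1.26, SE 0.20, edgeR adjusted p = 0.00524), mt-Rnr2 (1.04, SE 0.18, adjusted p = 0.0132), mt-Cytb (0.91, SE 0.17, adjusted p = 0.0247) and mt-Nd5 (1.13, SE 0.21, adjusted p = 0.0247). For mt-Nd1 the 3-week and 16-week means were 1271 and 3222 CPM in hippocampus, 1479 and 2716 CPM in cortex, 2977 and 2873 CPM in corpus callosum, 2735 and 2286 CPM in cerebellum, and 3076 and 2424 CPM in spinal cord. The low 3-week means were those of hippocampus and cortex, whose cells shared a plate. The fit took samples of different regions as independent, although the design text speaks of several regions from each mouse. With a block for replicate numbers within an age, 9 genes were called, and the 4 were among them.

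Against cortex alone, 0 of 19580 genes (0%) differed in their age change by edgeR, with 1574 at an unadjusted p under 0.05 and 378 called by DESeq2. Cortex and hippocampus shared a plate at 3 weeks but not at 16 weeks. Against corpus callosum, which shared a plate with hippocampus at 16 weeks but not at 3 weeks, 3 genes (0.0153%) were called. The mitochondrial genes rose more in hippocampus, mt-Rnr2 by 1.22 (SE 0.22) and mt-Nd1 by 1.32 (SE 0.24), each with an edgeR adjusted p of 0.0338. Ifi30, a lysosomal thiol reductase that prepares antigen, differed by -1.67 (SE 0.30, edgeR adjusted p = 0.0338). Its mean went from 280.2 to 139 CPM in hippocampus and from 187 to 282 CPM in corpus callosum, and with the GC correction the difference was -1.30 (adjusted p = 0.224).

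**Figure D5:**
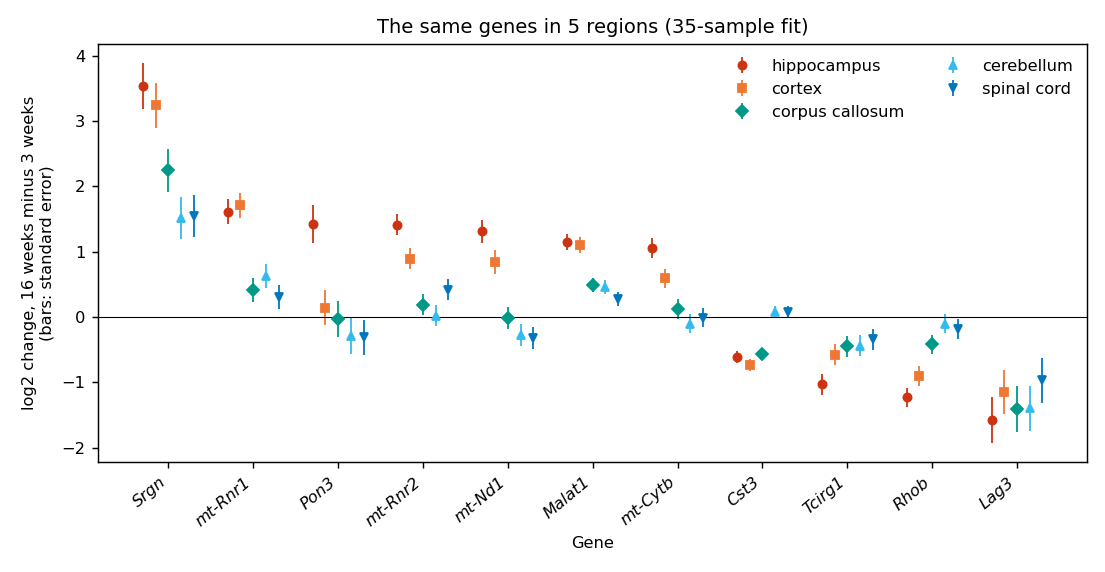
Log2 change from 3 to 16 weeks, with its standard error, of the 11 genes called in hippocampus, in each of 5 regions of the 35-sample fit. Srgn and Lag3 lie on the same side in all 5 regions, Pon3 stands apart from 0 in hippocampus, and Cst3 is lower in hippocampus, cortex and corpus callosum but at 0.08 in cerebellum and spinal cord.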

How the data were processed

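The deposited table held whole-number counts of reads per gene and well for 48587 genes and 92 ERCC spike-in sequences, for all wells of 7 plates; the authors had aligned reads with STAR 2.5.2b to GRCm38 and counted with featureCounts 1.6.2, per the submitters' processing notes. Strand and multimapping settings are not given in the sources used here. Overlapping or antisense genes and near-identical copies are therefore uncertain. Gene length as deposited by the authors was not used.

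Counts of wells in plate columns 1 and 2 were corrected by subtracting the counts of the wells whose names begin the same (224 wells). Of 2095843 nonzero entries 0 fell below 0, against 45.4% when the wells of the next row were subtracted. Wells with at least 500 genes and at most 20% mitochondrial reads were summed per region sample. Spike-in rows were left out. Levels are CPM on TMM-scaled library sizes of the 7 hippocampus samples, or of 35 samples where regions are compared. Age was tested with edgeR 4.0.16 (quasi-likelihood, robust, filterByExpr) in R 4.3.3 with a threshold of 0.05 on the adjusted p. Differences in age change between regions came from contrasts of 10 region and age groups. DESeq2 1.42.0 and limma 3.58.1 gave alternatives. Shares of cells used cells thinned to 40000 reads and exact permutation tests over samples. GC content was that of the longest GENCODE vM21 transcript of a symbol, known for 97.2% of tested genes. The edgeR fit was tested on simulated counts.

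Genes were named by rule: every called gene, then those of lowest p whose ages did not overlap in CPM, up to 24, and for each list the called members or else the 2 most abundant; other names were chosen with their values in view. Members and lists were chosen with earlier results of these data known. P-values measure the spread between samples that the labels call replicates. Values of 1 gene are not reported here.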

Additional observations from a re-analysis of the deposited data

Results flagged for a closer look

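Among the 4 samples of 16-week hippocampus, replicate 2 stood apart from the others for 2 of the 24 named genes, Tcirg1 at 783 CPM (the next was 655 CPM) and mt-Nd5 at 1734 CPM (the next was 1217 CPM). About 1 in 20 groups is singled out in this way by chance. Leaving out that replicate gave 1 call in place of 11.

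The age change differed between hippocampus and the mean of the other 4 regions for mt-Nd1 (1.26 on the log2 scale), mt-Rnr2 (1.04), mt-Cytb (0.91) and mt-Nd5 (1.13), by edgeR contrasts with an adjusted p under 0.05. Against corpus callosum it differed for mt-Rnr2 (1.22), mt-Nd1 (1.32) and Ifi30 (-1.67). All 3-week hippocampal cells lay on a plate shared with 3-week cortex, and the part of the plate in these differences was not tested.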

How the results depend on the processing

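The 11 age calls of edgeR became 101 with no filter on low counts, 262 with DESeq2 (all 11 among them), 18 with cells thinned to 40000 reads, 22 with limma on cell means, 4 with at least 1000 genes per cell, 2 without plate columns 1 and 2 and 0 with mitochondrial genes left out. They became 68 with all 51 samples in the fit, 42 with the 35 postnatal ones, and 262 with additive age and region terms, a choice made after seeing the data. GC correction, also chosen then, left 0, and so did GC correction with the replicate block. A replicate block alone left 0 (741 at an unadjusted p under 0.05). The numbers come from different mice at the 2 ages and share only a number: deviations correlated at -0.024 to 0.04 for equal numbers, of regions and ages alike, and at -0.033 to 0.039 for others. Across ages, 1 of 3 samples correlated best with its own number; between regions of an age, 24 of 28 did, a hint from the data that numbers mark the mouse there. Leaving out each sample gave 0 to 5 calls.

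With a plate term over 35 samples, which assumes 1 age change for all regions, 8 genes were called, none of them among the 11. Its age term takes the hippocampal change with a minus sign, as described above, so its values do not test the hippocampal changes. The term had the opposite sign for mt-Cytb (-0.26), mt-Nd1 (-0.52), Pon3 (-1.33), Tcirg1 (0.12), mt-Nd5 (-0.28), Ctss (-0.35) and Fbrsl1 (0.23). For Srgn it was 1.99, and for Cst3, Sparc, Crybb1 and Cwc22 it was -0.69, -0.89, -1.76 and -4.34. Without plate the pooled fit reversed 0 of the 24 named genes, with mt-Nd1 at 0.28, mt-Cytb at 0.32 and Pon3 at 0.15.

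The 4 calls against the mean of the other regions became 13 on counts as deposited, 7 without columns 1 and 2, 46 with no low filter, 386 with DESeq2, 1 with all sorted wells, 0 without mitochondrial genes, 9 with the replicate block and 7 with GC correction, and 0 to 8 leaving out each sample. The 0 calls against cortex became 25 with no low filter and 378 with DESeq2. The 3 against corpus callosum became 1 with DESeq2 size factors, 37 with no low filter, 447 with DESeq2, 0 with all sorted wells, 6 thinned, 0 without mitochondrial genes and 5 with GC correction, and 0 to 1 leaving out each sample. The cause of these shifts was not tested. Exact tests over 3 and 4 samples cannot pass 0.05, so detected genes, mitochondrial share, cycling share and shares of cells stayed above it in every alternative.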

Other observations

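The share of reads from ERCC spike-in RNA had a median per cell of 0.194, 0.184 and 0.195% in the 3-week hippocampus samples and 0.23, 0.207, 0.235 and 0.201% in the 16-week samples. The groups did not overlap (exact two-sided permutation p = 0.0571, the smallest possible with 3 against 4). The median number of reads per cell was 143184 to 219620.0 at 3 weeks and 196360.5 to 259128 at 16 weeks.

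Xist, the RNA that silences an X chromosome in female cells, lay at 595 to 885 CPM at 3 weeks and 843 to 1252 CPM at 16 weeks. Eif2s3y and Kdm5d, genes of the Y chromosome, were at 0 in all 7 samples, and Ddx3y and Uty reached at most 0.1 CPM.

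Near-identical counts between replicates were not seen. Log2 CPM correlated at 0.827 to 0.842 between the 3-week samples and at 0.756 to 0.773 between the 16-week samples, across genes.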
